A study of Mus musculus with 18 samples.

Results

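Lysosomes are acidic organelles in which proteases, glycosidases, sulfatases and lipid hydrolases break down material that arrives by endocytosis, phagocytosis or autophagy. Their limiting membrane carries heavily glycosylated proteins, transporters and ion channels, and the helix-loop-helix factors TFEB, TFE3 and MITF bind E-box motifs in the promoters of many lysosomal genes. Monocytes, macrophages and neutrophils carry large stores of lysosomal or lysosome-related enzymes, and these stores are built as myeloid cells mature.

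The genes described here are 45 mouse genes of lysosomal proteases, hydrolases, membrane proteins and their transcription factors, listed by name from general knowledge of the organelle. They were listed with earlier results of these data known, and their counts beside all genes carry that limit. All 45 were found among the 23418 genes measured, and all 45 passed the filter on low values, as did 11238 genes in all. Lgmn and Ctsk passed it only through their MI-2-2 libraries. Polyadenylated RNA was sequenced from C57BL/6 mouse leukemia cells transformed by a fusion of the chromatin regulator MLL to a partner protein, which was MLL-AF9, MLL-AF6 or else MLL-AF1p. Cells of each construct received either MI-2-2, a small molecule that blocks the binding of menin to MLL, at 6 µM, or DMSO alone, for 6 days, with fresh medium and a fresh dose on day 3. DMSO was at 0.25% in both arms, so the MI-2-2 cultures held it too. The question named by the study is whether inhibition of menin-MLL acts alike whatever the fusion partner. Each of the 6 groups had 3 libraries, and nothing in the labels states that they came from separate cultures. The p-values here therefore reflect no more than the spread among libraries within groups, pooled over the 6 groups. That spread may be technical. How the cells were transformed, and whether each line is 1 clone, is not given in the labels used here.

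Expression was read as RPKM, reads per kilobase of gene length and 1000000 counted reads, as the authors deposited it. Depth recovered from the values was 21180926 to 56304997 counted reads per library, with the MLL-AF1p libraries the deepest at 48883357 or more. Genes are described as rising or falling where the limma test on log2(RPKM + 0.5) gave a Benjamini-Hochberg adjusted p under 0.05 over all 11238 genes, and log2 fold changes are MI-2-2 minus DMSO on that scale, which understates the change of low genes. In bulk RNA such as this, fewer cells of a type and less RNA per cell cannot be told apart. Myeloid markers were present in every library, while each listed T cell, B cell, mast cell and fibroblast marker stayed under 1 RPKM throughout, as did 3 of 4 erythroid ones.

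More lysosomal genes rose than fell with MI-2-2 in each of the 3 constructs, and the largest rises were those of Gpnmb, Lgmn, Ctss, Ctsk, Ctsh, Cd68 and Psap. In MLL-AF9 cells 32 of the 45 rose, 6 fell and 7 did not pass, while 56.4% of all genes passed the test, 28.5% upward and 27.9% downward. In MLL-AF6 cells 32 rose, 5 fell and 8 did not pass, against 57% of all genes, 18% upward and 38.9% downward. With the libraries centred on their medians 2441 genes rose and 3384 fell in MLL-AF6 cells over the whole table, against 2025 and 4377 without centring. In MLL-AF1p cells 22 rose, 8 fell and 15 did not pass, against 45.4% of all genes, 19.1% upward and 26.3% downward. The median log2 fold changes of the 45 genes were 0.69 in MLL-AF9 cells, 0.54 in MLL-AF6 cells and 0.17 in MLL-AF1p cells, beside −0.000548, −0.16 and −0.06 over all genes tested. MI-2-2 and DMSO libraries did not overlap for 36 of the 45 in MLL-AF9 cells, 35 in MLL-AF6 cells and 38 in MLL-AF1p cells, beside 57.2%, 60.9% and 69.2% of all genes.

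**Figure D1:**
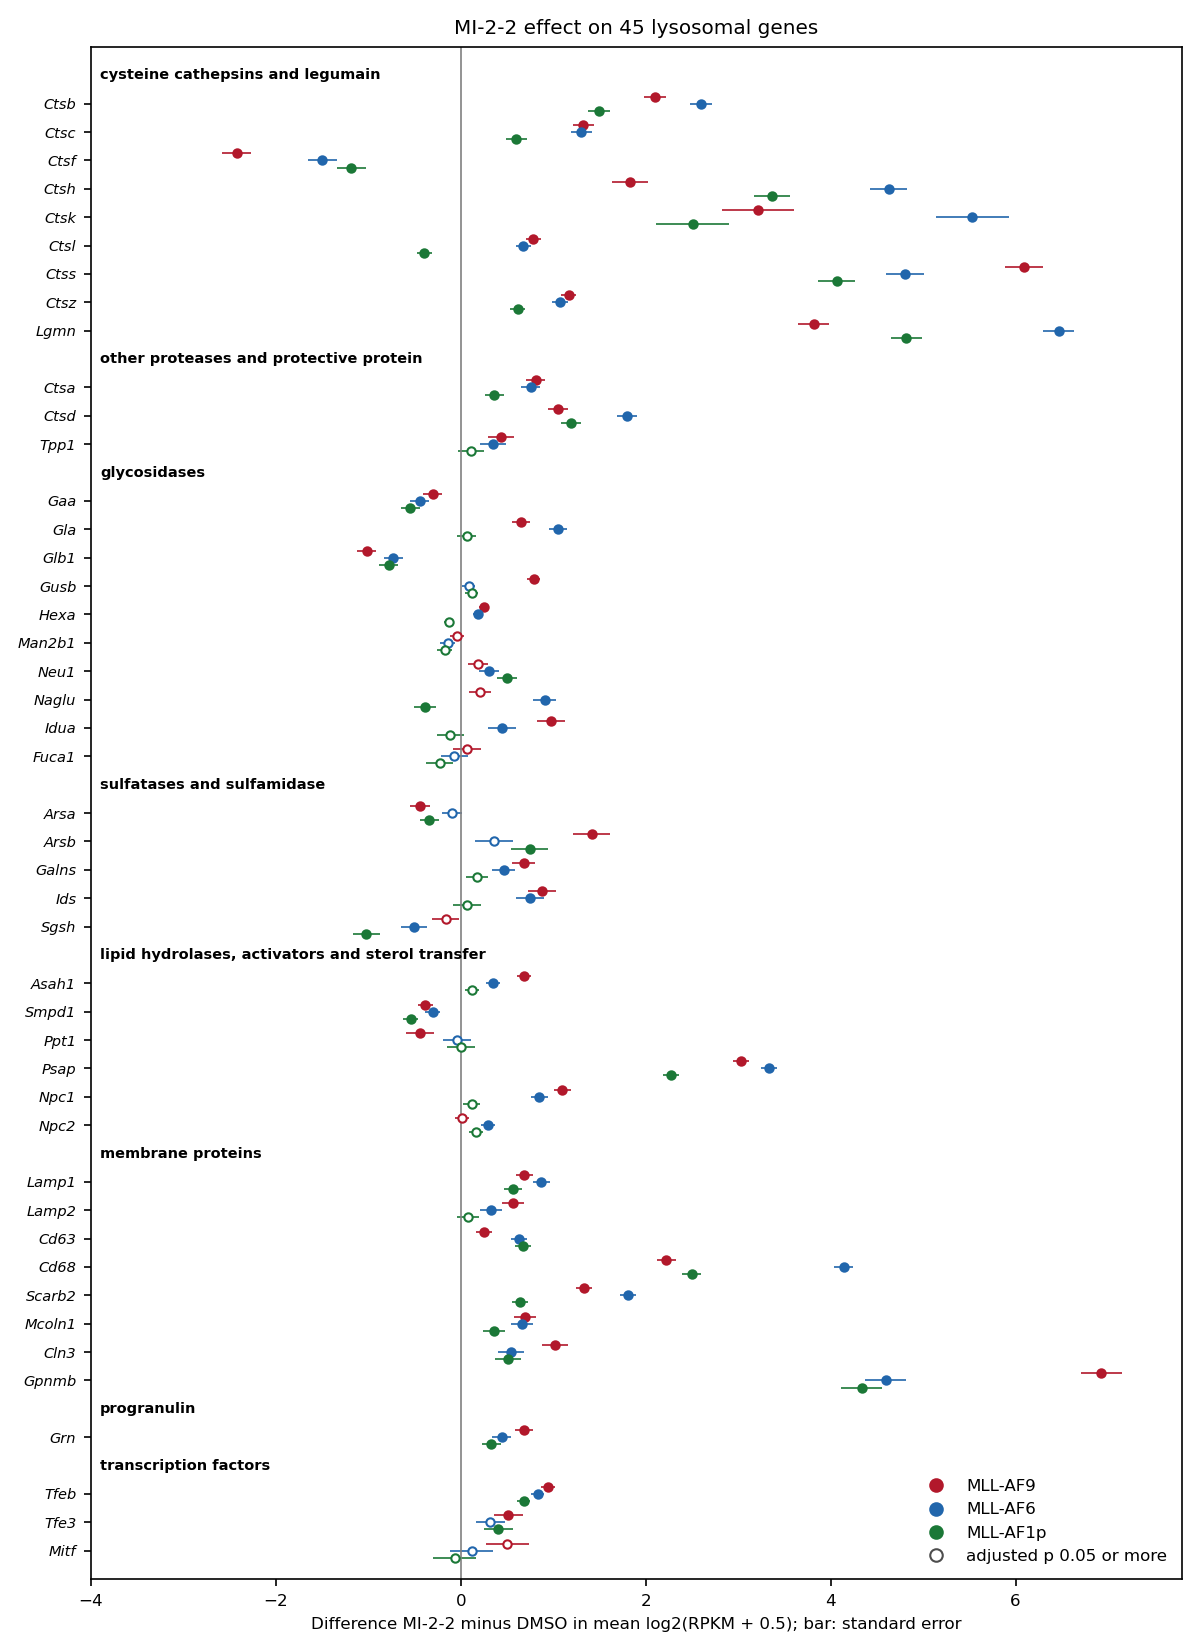
MI-2-2 minus DMSO difference in mean log2(RPKM + 0.5) for the 45 lysosomal genes, grouped by role, with 1 point per construct and the standard error as a bar. Filled points passed at an adjusted p under 0.05; Ctss, Lgmn, Ctsk, Ctsh, Psap, Cd68 and Gpnmb lie farthest to the right, and Ctsf, Glb1, Gaa and Smpd1 lie left of 0 in every construct.

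Of the 45 genes, 19 rose in all 3 constructs, beside 8.64% of all genes. They were the cathepsin genes Ctsa, Ctsb, Ctsc, Ctsd, Ctsh, Ctsk, Ctss and Ctsz, with Lgmn, Psap, Lamp1, Cd63, Cd68, Scarb2, Mcoln1, Cln3, Gpnmb, Grn and Tfeb. A further 4 fell in all 3, namely Ctsf, Gaa, Glb1 and Smpd1, beside 11.4% of all genes. Man2b1, Fuca1 and Mitf passed in no construct, beside 16% of all genes, although each passed in 1 construct under some other settings.

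The 45 genes also took a larger share of the counted reads under MI-2-2. In MLL-AF9 cells the share was 2.42 ± 0.101% with MI-2-2 and 1.06 ± 0.0962% with DMSO (SD, n = 3). MLL-AF6 cells reached 4.72 ± 0.443% with MI-2-2, against 1.51 ± 0.125% with DMSO, and MLL-AF1p cells 1.95 ± 0.0600% with MI-2-2, against 1.04 ± 0.0325% with DMSO. Psap alone took 1.34 ± 0.116% with MI-2-2 and 0.132 ± 0.0129% with DMSO in MLL-AF6. Without Psap the other genes still took 1.93 ± 0.127% with MI-2-2 and 1.00 ± 0.0914% with DMSO in MLL-AF9 cells, 3.38 ± 0.329% and 1.38 ± 0.129% in MLL-AF6 cells, and 1.38 ± 0.0443% and 0.918 ± 0.0368% in MLL-AF1p. The glycosidases and sulfatases differed less between the arms. The share of the glycosidases was 0.266 ± 0.00919% with MI-2-2 and 0.243 ± 0.0110% with DMSO in MLL-AF9 cells, 0.338 ± 0.0224% and 0.331 ± 0.0225% in MLL-AF6 cells, and 0.222 ± 0.00655% and 0.239 ± 0.0152% in MLL-AF1p. The sulfatases took 0.0266 ± 0.00321% with MI-2-2 and 0.0194 ± 0.00361% with DMSO in MLL-AF9, 0.0292 ± 0.00411% and 0.0264 ± 0.00266% in MLL-AF6 cells, and 0.0343 ± 0.000201% and 0.0329 ± 0.00231% in MLL-AF1p cells. No test was made on these sums, because the genes were chosen with earlier results known.

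**Figure D2:**
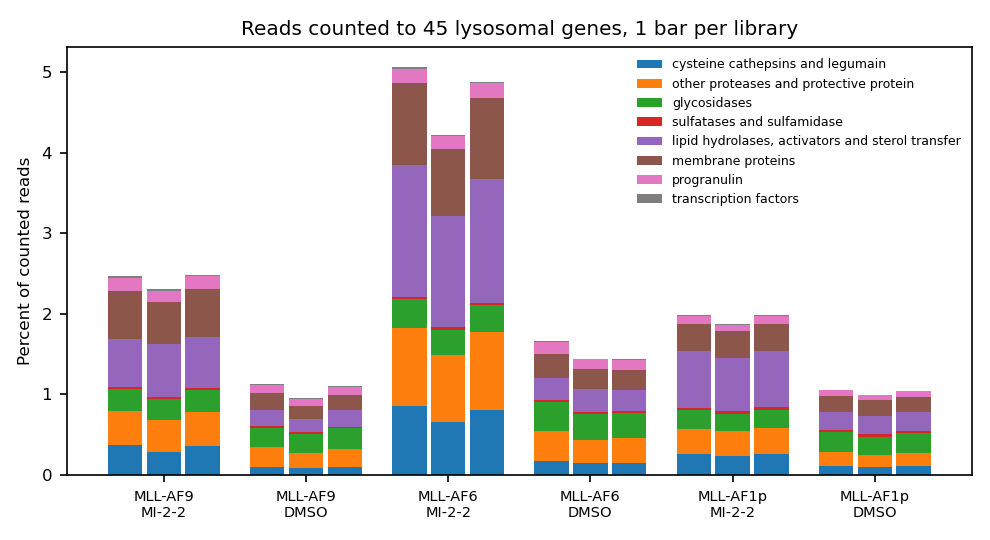
Percent of counted reads from the 45 lysosomal genes, 1 stacked bar per library and 1 colour per role, with MI-2-2 libraries left of DMSO libraries in each construct. The 3 MLL-AF6 MI-2-2 libraries, at 4.22 to 5.06%, stand above all others, and the glycosidase segment runs from 0.215 to 0.359% over all 18 libraries.

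Markers of maturing myeloid cells moved in the same libraries. The 6 monocyte and macrophage markers found, of 7 listed, summed to 201 to 343 RPKM with MI-2-2 and 75.0 to 149 with DMSO in MLL-AF9, 269 to 404 and 108 to 196 in MLL-AF6, and 126 to 141 and 50.7 to 54.1 in MLL-AF1p. None of the 6 was at 0 in any group. Of the 5 that passed the filter, 4 rose in MLL-AF9 cells, 3 in MLL-AF6 cells and 5 in MLL-AF1p cells, and none fell. Over all genes 28.5% rose and 27.9% fell in MLL-AF9 cells, 18% and 38.9% in MLL-AF6 cells, and 19.1% and 26.3% in MLL-AF1p cells. Log2 fold changes were 5.23, 4.02 and 3.88 for Csf1r, which encodes the macrophage colony-stimulating factor receptor, 2.67, 5.96 and 4.10 for Mrc1 and 0.54, 0.94 and 0.38 for Emr1, all of which passed in every construct. They were 1.39, 0.97 and 1.26 for Cd14, which did not pass in MLL-AF6, and −0.46, 0.46 and 2.87 for Fcgr1, which passed only in MLL-AF1p among the 3 constructs. The 4 neutrophil markers found, of 5 listed, summed to 1784 to 2203 RPKM with MI-2-2 and 61.5 to 189 with DMSO in MLL-AF9, 2548 to 2930 and 414 to 555 in MLL-AF6, and 4998 to 5272 and 628 to 736 in MLL-AF1p. All 4 rose in every construct, by 3.66 to 7.18 in MLL-AF9, 2.28 to 5.95 in MLL-AF6 and 2.56 to 5.33 in MLL-AF1p on the log2 scale. Among 5 osteoclast markers, whose cells are rich in Ctsk, 4 stayed under 1 RPKM in every library. Of 4 melanocyte markers found, whose cells express Gpnmb and Mitf, 2 did so. The osteoclast marker Nfatc1 had log2 fold changes of 0.34, 0.03 and 0.16, and the melanocyte marker Pmel 0.45, 0.09 and 0.08. Both passed only in MLL-AF9 (limma, adjusted p = 0.000806 and 0.0377). The 4 fibroblast markers summed to 0.555 to 0.724 RPKM with MI-2-2 and 0.132 to 0.419 with DMSO in MLL-AF9, 0.714 to 0.885 and 0.0567 to 0.122 in MLL-AF6 cells, and 0.553 to 0.626 and 0.0160 to 0.0470 in MLL-AF1p cells. The 4 erythroid markers summed to 0.503 to 0.896 RPKM with MI-2-2 and 0.592 to 0.940 with DMSO in MLL-AF9, 0.178 to 0.330 and 0.690 to 1.02 in MLL-AF6 cells, and 0.332 to 0.552 and 0.572 to 0.942 in MLL-AF1p cells. The part of these markers in the lysosomal changes was not tested.

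The library with replicate number 2 was the lowest of its group for many of the 45 genes. This held for 31 of 45 genes in MLL-AF9 MI-2-2, 33 in MLL-AF6 MI-2-2 and 33 in MLL-AF1p MI-2-2, and for 32, 22 and 29 in the DMSO groups of MLL-AF9, MLL-AF6 and MLL-AF1p. The same share over all genes is not given here, so these counts are not read as particular to the lysosomal genes. Summed monocyte and macrophage markers were also lowest in replicate 2 of all 3 MI-2-2 groups and of the MLL-AF9 and MLL-AF6 DMSO groups, and highest there in MLL-AF1p DMSO. Summed neutrophil markers were lowest in replicate 2 only in MLL-AF6 MI-2-2 and MLL-AF1p DMSO among the 6 groups. Csf1r was lowest in replicate 2 of each MI-2-2 group, and under DMSO it was highest there in MLL-AF9 and MLL-AF1p. With all 6 of these libraries left out, 128 of the 135 results for a lysosomal gene in a construct kept their direction and their call.

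The cysteine cathepsins and legumain rose together apart from Ctsf, and apart from Ctsl in MLL-AF1p. In MLL-AF9 and in MLL-AF6 cells 8 of 9 rose and 1 fell, and in MLL-AF1p cells 7 rose and 2 fell. Over all genes 28.5% rose and 27.9% fell in MLL-AF9 cells, 18% and 38.9% in MLL-AF6 cells, and 19.1% and 26.3% in MLL-AF1p cells. Their median log2 fold changes were 1.83, 2.60 and 1.50.

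Lgmn, the asparaginyl endopeptidase that trims cathepsins into their mature forms, was close to silent without the inhibitor. In MLL-AF9 cells, Lgmn was at 10.1, 7.43 and 9.10 RPKM with MI-2-2, against 0.310, 0.0241 and 0.182 RPKM with DMSO. MLL-AF6 cells had 86.2, 60.4 and 88.2 RPKM of Lgmn with MI-2-2, against 0.333, 0.449 and 0.360 RPKM with DMSO. MLL-AF1p cells had 30.3, 25.5 and 30.6 RPKM with MI-2-2, against 0.517, 0.627 and 0.466 RPKM with DMSO. No DMSO library reached 1 RPKM, so Lgmn passed the filter on low values only through its MI-2-2 libraries. Every MI-2-2 library was above every DMSO library, a separation that the filter favours, as it does the p-values below. Lgmn rose by 3.82, 6.46 and 4.82 (SE 0.16 each; limma, Benjamini-Hochberg adjusted p = 3.65e-11, 8.31e-14 and 6.5e-12). The DMSO values rest on 1 to 58 reads per library, and voom in limma on the recovered reads gave log2 fold changes of 6.04, 7.65 and 5.74.

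Ctss, the protease that cleaves the invariant chain in antigen-presenting cells, had one of the largest rises. In MLL-AF9 cells, Ctss was at 148, 123 and 154 RPKM with MI-2-2, against 1.58, 1.43 and 1.73 RPKM with DMSO. MLL-AF6 cells had 412, 267 and 389 RPKM of Ctss with MI-2-2, against 8.94, 17.5 and 11.2 RPKM with DMSO. MLL-AF1p cells had 117, 110.3 and 122 RPKM with MI-2-2, against 5.63, 8.18 and 5.91 RPKM with DMSO. The groups were far apart in each construct, with MLL-AF9 the lowest under DMSO. Ctss rose by 6.09, 4.80 and 4.06 (SE 0.20 each; limma, Benjamini-Hochberg adjusted p = 2.18e-12, 2.45e-11 and 5.13e-10).

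Ctsk, a collagen-degrading protease best known from osteoclasts, was under 1 RPKM in every DMSO library. Like Lgmn it passed the filter only through its MI-2-2 libraries, with the same limit on its separation and p-values. In MLL-AF9 cells, Ctsk was at 10.0, 5.26 and 10.2 RPKM with MI-2-2, against 0.967, 0.122 and 0.393 RPKM with DMSO. MLL-AF6 cells had 55.2, 18.9 and 54.8 RPKM of Ctsk with MI-2-2, against 0.666, 0.119 and 0.336 RPKM with DMSO. MLL-AF1p cells had 3.45, 2.40 and 3.20 RPKM with MI-2-2, against 0.0954, 0.0274 and 0.233 RPKM with DMSO. Replicate 2 was the lowest library of all 6 groups, and MI-2-2 and DMSO libraries of the same construct did not overlap. Ctsk rose by 3.21, 5.53 and 2.51 (SE 0.39 each; limma, Benjamini-Hochberg adjusted p = 4.7e-06, 1.17e-08 and 9.96e-05). With 2 to 32 reads per DMSO library these sizes depended on the scale, and voom on the recovered reads gave 4.40, 6.96 and 4.99.

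Ctsh, an aminopeptidase, had its smallest rise in MLL-AF9 cells. In MLL-AF9 cells, Ctsh was at 6.63, 7.83 and 7.68 RPKM with MI-2-2, against 1.21, 2.09 and 1.94 RPKM with DMSO. MLL-AF6 cells had 41.8, 29.9 and 40.1 RPKM of Ctsh with MI-2-2, against 0.546, 1.49 and 1.16 RPKM with DMSO. MLL-AF1p cells had 33.9, 32.7 and 34.7 RPKM with MI-2-2, against 3.01, 2.63 and 2.84 RPKM with DMSO. MLL-AF9 cells had the lowest MI-2-2 libraries of the 3 constructs, while their DMSO libraries overlapped with those of MLL-AF6. Ctsh rose by 1.83, 4.63 and 3.37 (SE 0.20 each; limma, Benjamini-Hochberg adjusted p = 1.29e-06, 2.65e-11 and 2.93e-09).

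Ctsb, an abundant endopeptidase, showed the same direction at far higher levels. In MLL-AF9 cells, Ctsb was at 448, 333 and 426 RPKM with MI-2-2, against 94.1, 85.2 and 99.9 RPKM with DMSO. MLL-AF6 cells had 1179.7, 913 and 1069 RPKM of Ctsb with MI-2-2, against 199.9, 153 and 167 RPKM with DMSO. MLL-AF1p cells had 278, 258 and 282 RPKM with MI-2-2, against 99.2, 90.4 and 99.5 RPKM with DMSO. The lowest MI-2-2 library of any construct was above the highest DMSO library of any construct. Ctsb rose by 2.10, 2.60 and 1.50 (SE 0.12 each; limma, Benjamini-Hochberg adjusted p = 1.04e-09, 6.53e-11 and 1.09e-07). Ctsb shares 774 exon bases with Fdft1 on the other strand, and the library kit does not mark strand, so reads in that stretch cannot be assigned to either gene. Of the 45 genes, 14 share exon bases with another gene, 11 of them with a protein-coding one. Besides Ctsb they are Arsa, Arsb, Cln3, Ctsa, Ctsd, Ctsl, Ctsz, Glb1, Idua, Lamp1, Npc1, Ppt1 and Sgsh. Arsb shares 1948 bases with Gm26527, Arsa 690 with C230037L18Rik and Ctsd 670 with Gm49369, the last on the same strand.

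**Figure D3:**
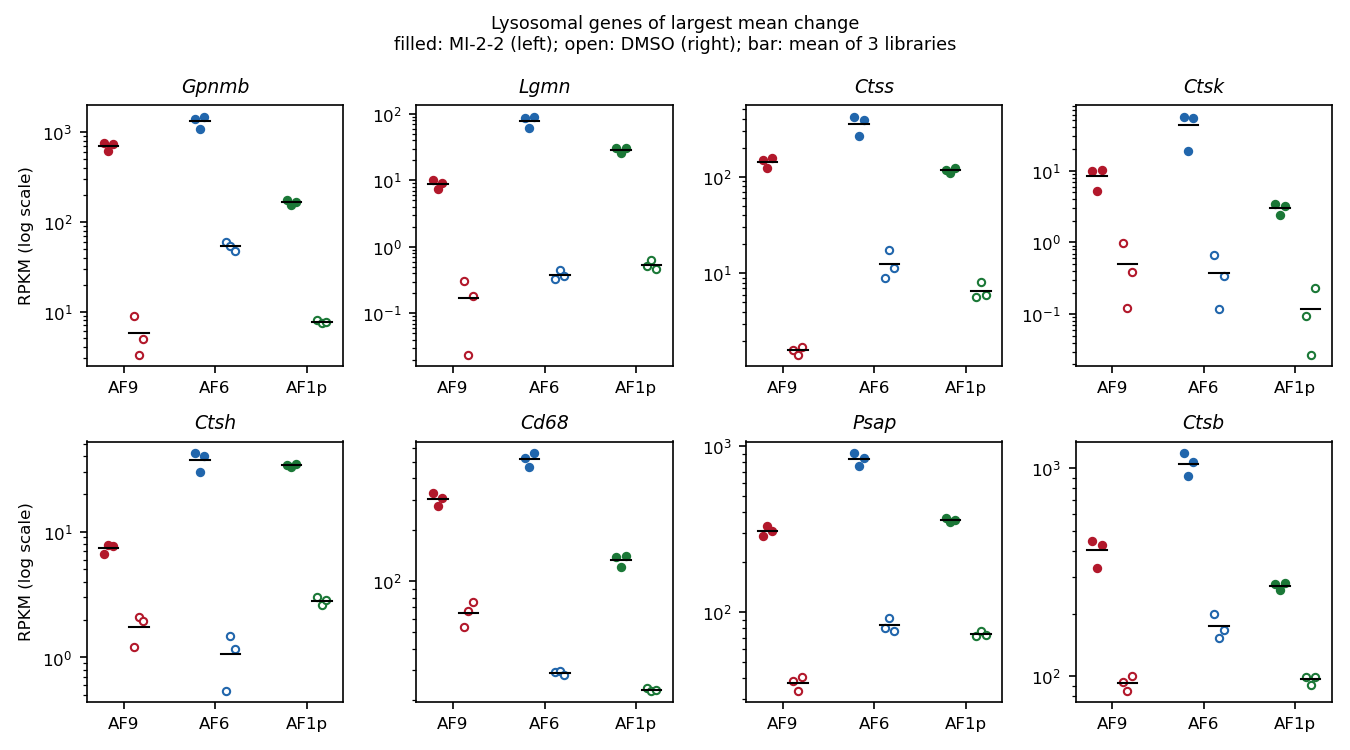
RPKM per library, on a log scale, of the 8 lysosomal genes with the largest mean absolute log2 fold change, with filled points for MI-2-2 left of open points for DMSO in each construct and a bar at the mean of 3 libraries. No MI-2-2 library overlaps the DMSO libraries of its construct, and Lgmn and Ctsk lie under 1 RPKM in every DMSO library.

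Ctsc, the dipeptidyl peptidase that activates neutrophil granule proteases, stood at 44.9 to 137 RPKM over the 9 MI-2-2 libraries and 14.5 to 52.8 over the 9 DMSO libraries, and rose by 1.33, 1.30 and 0.60. Ctsz, a carboxypeptidase, stood at 327 to 738 RPKM over the 9 MI-2-2 libraries and 209 to 335 over the 9 DMSO libraries, and rose by 1.17, 1.07 and 0.62. Both changes were smallest in MLL-AF1p.

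Ctsl, an endopeptidase close in function to Ctsb, went in opposite directions. In MLL-AF9 cells, Ctsl was at 103, 85.5 and 95.5 RPKM with MI-2-2, against 57.2, 48.0 and 59.8 RPKM with DMSO. MLL-AF6 cells had 109, 107 and 113 RPKM of Ctsl with MI-2-2, against 71.6, 65.7 and 68.1 RPKM with DMSO. MLL-AF1p cells had 46.0, 43.7 and 46.6 RPKM with MI-2-2, against 58.0, 63.6 and 58.3 RPKM with DMSO. MI-2-2 libraries lay above DMSO libraries in MLL-AF9 and MLL-AF6 and below them in MLL-AF1p, with no overlap in any of them. Ctsl rose by 0.78 in MLL-AF9 and 0.68 in MLL-AF6, yet fell by 0.40 in MLL-AF1p (SE 0.08 each; limma, Benjamini-Hochberg adjusted p = 7.97e-07, 4.51e-06 and 0.000963). Its exons overlap the antisense gene Gm47123 over 1742 bases and the processed pseudogene Gm49230 over 395 bases.

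Ctsf was the only cysteine cathepsin of the list to fall in all 3 constructs. In MLL-AF9 cells, Ctsf was at 2.42, 1.80 and 2.40 RPKM with MI-2-2, against 14.8, 12.8 and 14.3 RPKM with DMSO. MLL-AF6 cells had 1.75, 1.10 and 1.04 RPKM of Ctsf with MI-2-2, against 3.91, 5.03 and 4.64 RPKM with DMSO. MLL-AF1p cells had 0.447, 0.420 and 0.417 RPKM with MI-2-2, against 1.38, 2.15 and 1.38 RPKM with DMSO. The order of the constructs was the same in both arms, with MLL-AF9 highest, and MI-2-2 and DMSO libraries of the same construct did not overlap. Ctsf changed by −2.42, −1.50 and −1.19 (SE 0.16 each; limma, Benjamini-Hochberg adjusted p = 4.5e-09, 1.12e-06 and 2.22e-05), and in MLL-AF1p, where levels were lowest, voom on the recovered reads gave −1.89.

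Among the other proteases, Ctsd, the major aspartic protease of the lysosome, was abundant in both arms. Levels of Ctsd were 1256 to 4142 RPKM over the 9 MI-2-2 libraries and 540.5 to 1305 over the 9 DMSO libraries, and it rose by 1.05, 1.80 and 1.19 (SE 0.11 each; limma, Benjamini-Hochberg adjusted p = 6.3e-07, 1.39e-09 and 3.4e-07). Ctsa, the carboxypeptidase that protects beta-galactosidase and the sialidase Neu1 from degradation, stood at 47.3 to 158 RPKM over the 9 MI-2-2 libraries and 34.3 to 104 over the 9 DMSO libraries, and rose by 0.81, 0.75 and 0.36. The Ctsa call in MLL-AF1p ended without MLL-AF1p DMSO replicate 2 (limma, adjusted p = 0.0521). Tpp1, a tripeptidyl peptidase lost in a childhood form of neuronal ceroid lipofuscinosis, rose by 0.44 in MLL-AF9 and 0.35 in MLL-AF6, with a difference of 0.11 in MLL-AF1p. Its call in MLL-AF9 ended without MLL-AF9 DMSO replicate 2 (limma, adjusted p = 0.0816) or MI-2-2 replicate 3 (0.0545), and with each construct fitted alone (0.0653). In MLL-AF6 it ended without any of 11 of the 18 libraries, among them MLL-AF6 DMSO replicates 2 and 3 and MI-2-2 replicates 1 and 3 (limma, adjusted p from 0.0503 to 0.171), with no filter (0.0704) and with each construct fitted alone (0.0693).

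Glycosidases remove sugars from glycoproteins, glycolipids and glycosaminoglycans. Among 10 members 4 rose and 2 fell in MLL-AF9 cells, 5 rose and 2 fell in MLL-AF6, and 1 rose and 3 fell in MLL-AF1p. The shares over all genes were 28.5% up and 27.9% down in MLL-AF9 cells, 18% and 38.9% in MLL-AF6 cells, and 19.1% and 26.3% in MLL-AF1p cells, so in MLL-AF9 and MLL-AF1p the glycosidase counts lay near them. The median log2 fold changes were 0.20, 0.14 and −0.15.

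Glb1, the lysosomal beta-galactosidase whose activity at raised pH is used as a stain for senescent cells, fell in every construct. In MLL-AF9 cells, Glb1 was at 31.7, 25.4 and 32.8 RPKM with MI-2-2, against 56.5, 60.3 and 66.3 RPKM with DMSO. MLL-AF6 cells had 48.1, 37.6 and 41.8 RPKM of Glb1 with MI-2-2, against 76.8, 65.3 and 69.8 RPKM with DMSO. MLL-AF1p cells had 33.5, 30.1 and 33.9 RPKM with MI-2-2, against 56.0, 57.2 and 54.8 RPKM with DMSO. The highest MI-2-2 library of any construct was below the lowest DMSO library of any construct. Glb1 changed by −1.02, −0.73 and −0.78 (SE 0.10 each; limma, Benjamini-Hochberg adjusted p = 6.4e-07, 2.41e-05 and 2.14e-05).

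Gaa, the acid alpha-glucosidase that degrades glycogen and is lost in Pompe disease, also fell. In MLL-AF9 cells, Gaa was at 29.7, 23.4 and 26.8 RPKM with MI-2-2, against 28.6, 34.4 and 36.0 RPKM with DMSO. MLL-AF6 cells had 30.3, 27.1 and 30.6 RPKM of Gaa with MI-2-2, against 42.8, 38.3 and 39.2 RPKM with DMSO. MLL-AF1p cells had 21.0, 18.5 and 20.1 RPKM with MI-2-2, against 31.8, 25.4 and 30.9 RPKM with DMSO. The MLL-AF9 groups overlapped through MI-2-2 replicate 1, and the groups of MLL-AF6 and MLL-AF1p did not overlap. Gaa changed by −0.30, −0.45 and −0.54 (SE 0.11 each; limma, Benjamini-Hochberg adjusted p = 0.0235, 0.00225 and 0.000689). In MLL-AF9 the call ended without DMSO replicate 2 (limma, adjusted p = 0.07), DMSO replicate 3 (0.101), MI-2-2 replicate 2 (0.121) or replicate 2 of every group (0.152), and with each construct fitted alone (0.087).

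Naglu, which removes N-acetylglucosamine from heparan sulfate, rose in MLL-AF6 and fell in MLL-AF1p. In MLL-AF9 cells, Naglu was at 30.6, 30.7 and 30.4 RPKM with MI-2-2, against 20.0, 31.1 and 29.6 RPKM with DMSO. MLL-AF6 cells had 45.8, 47.4 and 46.1 RPKM of Naglu with MI-2-2, against 23.3, 26.7 and 23.8 RPKM with DMSO. MLL-AF1p cells had 29.3, 25.4 and 27.9 RPKM with MI-2-2, against 37.8, 32.4 and 38.3 RPKM with DMSO. The MLL-AF6 groups lay far apart, the MLL-AF1p groups lay close without overlap, and the MLL-AF9 groups overlapped. Naglu had log2 fold changes of 0.21, 0.91 and −0.39 (SE 0.12 each; limma, Benjamini-Hochberg adjusted p = 0.167, 1.65e-05 and 0.0181) in the 3 constructs. The MLL-AF1p call ended without DMSO replicate 1 (limma, adjusted p = 0.0581), DMSO replicate 3 (0.0672) or MI-2-2 replicate 2 (0.0729), and in MLL-AF9 a rise passed without DMSO replicate 2 (0.0392).

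Man2b1, the acidic alpha-mannosidase, and Fuca1, the alpha-fucosidase, passed in no construct at levels of 38.8 RPKM or more. In MLL-AF9 cells, Man2b1 was at 169.9, 178 and 184 RPKM with MI-2-2, against 179.6, 172 and 195 RPKM with DMSO. MLL-AF6 cells had 225, 195 and 209.8 RPKM of Man2b1 with MI-2-2, against 256, 223 and 217 RPKM with DMSO. MLL-AF1p cells had 129, 118 and 124 RPKM with MI-2-2, against 147, 129 and 144 RPKM with DMSO. MI-2-2 and DMSO libraries of Man2b1 overlapped in every construct. The log2 fold changes of Man2b1 were −0.04, −0.14 and −0.18 (SE 0.08 each; limma, Benjamini-Hochberg adjusted p = 0.698, 0.129 and 0.0757). In MLL-AF9 cells, Fuca1 was at 73.3, 63.7 and 75.1 RPKM with MI-2-2, against 75.5, 58.3 and 68.9 RPKM with DMSO. MLL-AF6 cells had 69.2, 51.2 and 68.2 RPKM of Fuca1 with MI-2-2, against 82.3, 52.9 and 64.0 RPKM with DMSO. MLL-AF1p cells had 40.4, 38.8 and 41.5 RPKM with MI-2-2, against 52.3, 42.2 and 47.5 RPKM with DMSO. Fuca1 groups overlapped in MLL-AF9 and MLL-AF6 and not in MLL-AF1p. The log2 fold changes of Fuca1 were 0.07, −0.07 and −0.23 (SE 0.15 each; limma, Benjamini-Hochberg adjusted p = 0.714, 0.713 and 0.226). In MLL-AF1p a fall of Man2b1 passed without MLL-AF1p DMSO replicate 2 (limma, adjusted p = 0.0359) or MLL-AF6 DMSO replicate 1 (0.0489), with quantile normalization (0.0317) and with each construct fitted alone (0.041), as did a fall of Fuca1 in that last setting (0.038).

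Gla, the alpha-galactosidase lost in Fabry disease, stood at 19.4 to 44.3 RPKM over the 9 MI-2-2 libraries and 11.5 to 26.5 over the 9 DMSO libraries. It rose by 0.65 in MLL-AF9 and 1.05 in MLL-AF6, with a difference of 0.06 in MLL-AF1p. Gusb, the beta-glucuronidase, stood at 170.4 to 293 RPKM over the 9 MI-2-2 libraries and 97.6 to 268 over the 9 DMSO libraries, rose by 0.79 in MLL-AF9, with differences of 0.08 in MLL-AF6 and 0.12 in MLL-AF1p. Idua, the alpha-iduronidase lost in Hurler syndrome, rose by 0.98 in MLL-AF9 and 0.45 in MLL-AF6, with a difference of −0.11 in MLL-AF1p. The Idua call in MLL-AF6 ended without DMSO replicate 1 (limma, adjusted p = 0.073) or MI-2-2 replicate 2 (0.0587). None of Gla, Gusb and Idua passed in MLL-AF1p. Hexa, the alpha subunit of beta-hexosaminidase lost in Tay-Sachs disease, stood at 232 to 402 RPKM over the 9 MI-2-2 libraries and 212 to 359 over the 9 DMSO libraries. It rose by 0.25 in MLL-AF9 and 0.19 in MLL-AF6, with a difference of −0.12 in MLL-AF1p. Its MI-2-2 and DMSO libraries did not overlap in any construct. The MLL-AF6 call for Hexa ended without DMSO replicate 3 (limma, adjusted p = 0.0526) or MI-2-2 replicate 1 (0.0508) and with quantile normalization (0.333) or each construct fitted alone (0.0704), and in MLL-AF1p a fall passed without MLL-AF6 DMSO replicate 1 (0.0443) and with each construct fitted alone (0.014). Neu1, the lysosomal sialidase, rose by 0.31 in MLL-AF6 and 0.50 in MLL-AF1p, with a difference of 0.19 in MLL-AF9 that did not pass. In MLL-AF6 its call ended without DMSO replicate 2 (limma, adjusted p = 0.138), DMSO replicate 3 (0.0603), MI-2-2 replicate 1 (0.0902) or MI-2-2 replicate 3 (0.091), and with each construct fitted alone (0.0685).

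The sulfatases strip sulfate groups from glycosaminoglycans and sulfolipids. Among the 5 members 3 rose and 1 fell in MLL-AF9 cells, 2 rose and 1 fell in MLL-AF6, and 1 rose and 2 fell in MLL-AF1p. Over all genes 28.5% rose and 27.9% fell in MLL-AF9 cells, 18% and 38.9% in MLL-AF6 cells, and 19.1% and 26.3% in MLL-AF1p cells. The MLL-AF1p counts of these few genes lay near those shares.

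Sgsh, the sulfamidase of heparan sulfate breakdown, fell most in MLL-AF1p. In MLL-AF9 cells, Sgsh was at 3.41, 4.45 and 4.03 RPKM with MI-2-2, against 3.17, 5.05 and 5.50 RPKM with DMSO. MLL-AF6 cells had 5.83, 6.46 and 6.73 RPKM of Sgsh with MI-2-2, against 8.89, 10.5 and 8.30 RPKM with DMSO. MLL-AF1p cells had 3.32, 3.21 and 3.46 RPKM with MI-2-2, against 7.50, 7.17 and 7.18 RPKM with DMSO. Groups overlapped in MLL-AF9, where DMSO replicate 1 was the lowest library, and not in the other constructs. Sgsh had log2 fold changes of −0.16, −0.51 and −1.02 (SE 0.15 each; limma, Benjamini-Hochberg adjusted p = 0.365, 0.00788 and 4.1e-05). In MLL-AF9 a fall passed without DMSO replicate 1 (limma, adjusted p = 0.00662), and in MLL-AF6 the call ended without replicate 2 of every group (0.0782). Of its exons, 955 bases lie opposite Card14.

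Arsa, arylsulfatase A, which degrades sulfatide, fell in MLL-AF9 and MLL-AF1p. In MLL-AF9 cells, Arsa was at 14.7, 16.2 and 14.3 RPKM with MI-2-2, against 17.2, 22.9 and 22.5 RPKM with DMSO. MLL-AF6 cells had 25.3, 31.9 and 27.1 RPKM of Arsa with MI-2-2, against 28.9, 32.3 and 28.8 RPKM with DMSO. MLL-AF1p cells had 30.0, 28.6 and 29.1 RPKM with MI-2-2, against 39.2, 33.5 and 38.7 RPKM with DMSO. The MLL-AF6 groups overlapped and the others did not. Arsa had log2 fold changes of −0.44, −0.10 and −0.34 (SE 0.11 each; limma, Benjamini-Hochberg adjusted p = 0.00236, 0.453 and 0.018). The MLL-AF1p call ended without DMSO replicate 1 (limma, adjusted p = 0.0639), DMSO replicate 3 (0.0629) or MI-2-2 replicate 2 (0.0532).

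The other sulfatase genes moved upward where they passed. Arsb, which acts on dermatan and chondroitin sulfate, rose by 1.41 in MLL-AF9 and 0.75 in MLL-AF1p, with a difference of 0.36 in MLL-AF6, where it passed without DMSO replicate 2 (limma, adjusted p = 0.0301). Galns, which acts on keratan sulfate, rose by 0.68 in MLL-AF9 and 0.46 in MLL-AF6, with a difference of 0.17 in MLL-AF1p. Ids, the iduronate sulfatase lost in Hunter syndrome, stood at 1.64 to 3.49 RPKM over the 9 MI-2-2 libraries and 0.813 to 1.91 over the 9 DMSO libraries. It rose by 0.87 in MLL-AF9 and 0.75 in MLL-AF6, with a difference of 0.06 in MLL-AF1p.

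Lipid hydrolases and sterol transfer genes were led by Psap. Among the 6 members 3 rose and 2 fell in MLL-AF9 cells, 4 rose and 1 fell in MLL-AF6, and 1 rose and 1 fell in MLL-AF1p. Over all genes 28.5% rose and 27.9% fell in MLL-AF9 cells, 18% and 38.9% in MLL-AF6 cells, and 19.1% and 26.3% in MLL-AF1p cells. For these few genes both MLL-AF1p counts and the falls in MLL-AF9 lay near those shares.

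Psap encodes prosaposin, the precursor of the saposins that present sphingolipids to their hydrolases. In MLL-AF9 cells, Psap was at 289, 329 and 310.3 RPKM with MI-2-2, against 38.3, 33.7 and 40.4 RPKM with DMSO. MLL-AF6 cells had 906, 762 and 854 RPKM of Psap with MI-2-2, against 80.7, 92.1 and 76.5 RPKM with DMSO. MLL-AF1p cells had 368, 348 and 362 RPKM with MI-2-2, against 72.3, 77.2 and 72.8 RPKM with DMSO. Every MI-2-2 library was above every DMSO library of all constructs. Psap rose by 3.03, 3.33 and 2.27 (SE 0.08 each; limma, Benjamini-Hochberg adjusted p = 2.9e-13, 8.31e-14 and 1.89e-11). The length used in the deposited table for Psap, 15892 bases, is 5.98 times its longest coding transcript in GENCODE M21, so its RPKM is low for its reads and is not compared with that of other genes here.

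Smpd1, the acid sphingomyelinase lost in Niemann-Pick disease types A and B, fell in every construct. In MLL-AF9 cells, Smpd1 was at 17.8, 17.6 and 18.4 RPKM with MI-2-2, against 22.6, 24.4 and 23.6 RPKM with DMSO. MLL-AF6 cells had 15.7, 16.6 and 14.6 RPKM of Smpd1 with MI-2-2, against 19.6, 18.2 and 20.4 RPKM with DMSO. MLL-AF1p cells had 17.8, 16.0 and 17.1 RPKM with MI-2-2, against 27.5, 21.4 and 26.2 RPKM with DMSO. No MI-2-2 library reached the DMSO libraries of its construct. Smpd1 changed by −0.38, −0.30 and −0.54 (SE 0.08 each; limma, Benjamini-Hochberg adjusted p = 0.00108, 0.00559 and 8.21e-05).

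Asah1, the acid ceramidase, rose by 0.68 in MLL-AF9 and 0.35 in MLL-AF6, with a difference of 0.12 in MLL-AF1p. Npc1 and Npc2 hand cholesterol out of the lysosome. Npc1, the membrane partner, rose by 1.10 in MLL-AF9 and 0.85 in MLL-AF6, with a difference of 0.12 in MLL-AF1p. Npc2, the soluble partner, stood at 133 to 219 RPKM over the 9 MI-2-2 libraries and 117 to 187 over the 9 DMSO libraries, rose by 0.30 in MLL-AF6, with differences of 0.01 in MLL-AF9 and 0.16 in MLL-AF1p. Ppt1, the palmitoyl-protein thioesterase, fell by 0.44 in MLL-AF9, with differences of −0.04 in MLL-AF6 and 0.00 in MLL-AF1p, and its groups overlapped in each. The Ppt1 call ended without MLL-AF9 DMSO replicate 1 (limma, adjusted p = 0.113), DMSO replicate 3 (0.0645), MI-2-2 replicate 1 (0.0603) or MI-2-2 replicate 2 (0.0547), and with each construct fitted alone (0.0819).

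**Figure D4:**
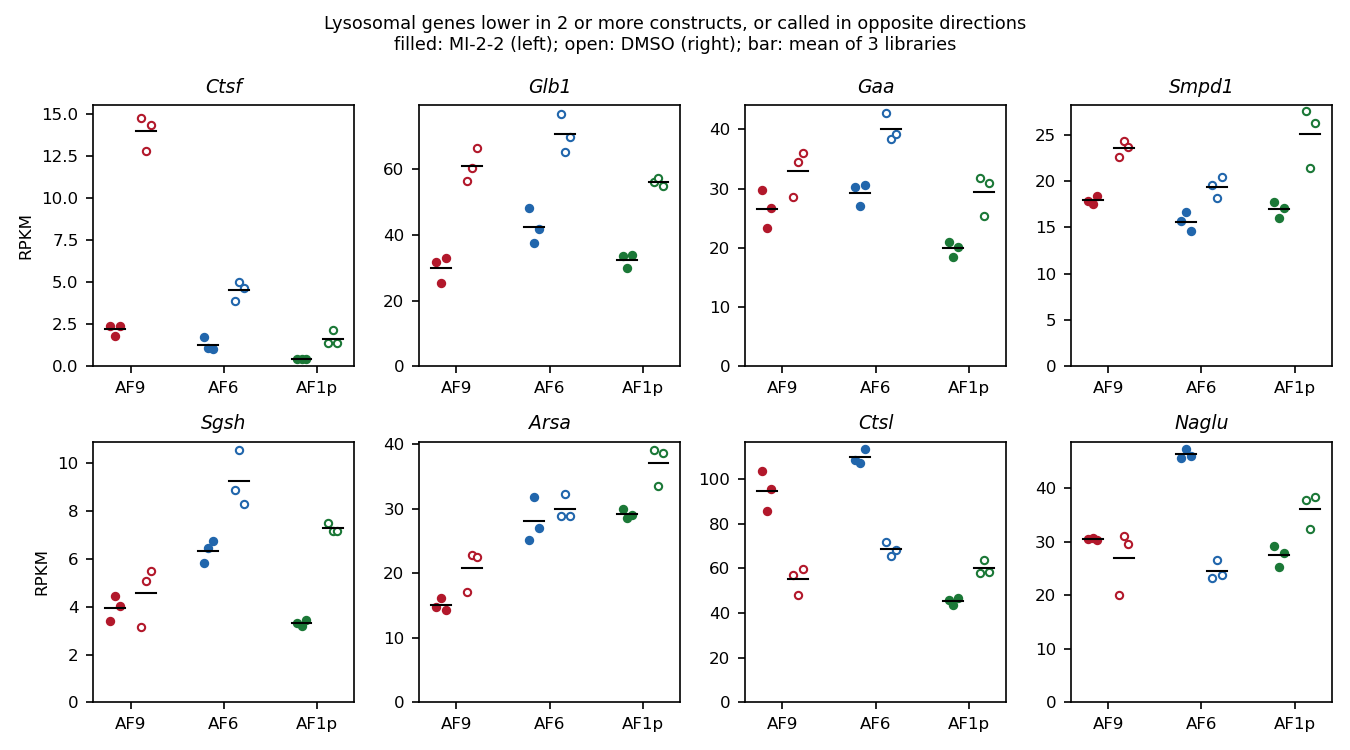
RPKM per library, on a linear scale from 0, of the 6 lysosomal genes that fell in 2 or more constructs and of Ctsl and Naglu, which passed in opposite directions. Filled points are MI-2-2 libraries, left of the open DMSO points of their construct, and bars are means of 3 libraries; Glb1 is lower with MI-2-2 in each construct, and Ctsl is higher in MLL-AF9 and MLL-AF6 and lower in MLL-AF1p.

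Of the membrane protein genes 8 of 8 were higher in MLL-AF9 and MLL-AF6 and 7 of 8 in MLL-AF1p, and none was lower. Over all genes 28.5% rose and 27.9% fell in MLL-AF9 cells, 18% and 38.9% in MLL-AF6 cells, and 19.1% and 26.3% in MLL-AF1p cells. The median log2 fold changes of the 8 membrane protein genes were 0.86, 0.77 and 0.60.

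Gpnmb, a glycoprotein of macrophage lysosomes and melanosomes, had the largest change of the 45 genes on average. In MLL-AF9 cells, Gpnmb was at 759.7, 622 and 732 RPKM with MI-2-2, against 8.91, 3.31 and 4.89 RPKM with DMSO. MLL-AF6 cells had 1406, 1080.2 and 1463 RPKM of Gpnmb with MI-2-2, against 58.9, 54.3 and 47.6 RPKM with DMSO. MLL-AF1p cells had 174, 152 and 168 RPKM with MI-2-2, against 8.02, 7.37 and 7.59 RPKM with DMSO. MLL-AF6 cells were the highest in both arms, and MI-2-2 and DMSO libraries of the same construct did not overlap. Gpnmb rose by 6.93, 4.60 and 4.34 (SE 0.22 each; limma, Benjamini-Hochberg adjusted p = 1.27e-12, 1.18e-10 and 6.69e-10).

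Cd68, macrosialin, a widely used macrophage marker, rose most in MLL-AF6. In MLL-AF9 cells, Cd68 was at 326, 277 and 309 RPKM with MI-2-2, against 53.5, 66.8 and 75.4 RPKM with DMSO. MLL-AF6 cells had 528, 467 and 561 RPKM of Cd68 with MI-2-2, against 29.1, 29.5 and 27.9 RPKM with DMSO. MLL-AF1p cells had 138, 121 and 141 RPKM with MI-2-2, against 23.5, 22.8 and 23.0 RPKM with DMSO. The constructs were ordered differently in the arms, with MLL-AF6 highest under MI-2-2 and MLL-AF9 highest under DMSO. Cd68 rose by 2.22, 4.14 and 2.50 (SE 0.10 each; limma, Benjamini-Hochberg adjusted p = 1.03e-10, 8.31e-14 and 7.55e-11).

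Lamp1 and Lamp2 are the major glycoproteins of the limiting membrane. Lamp1 stood at 503 to 997 RPKM over the 9 MI-2-2 libraries and 342 to 552 over the 9 DMSO libraries, and rose by 0.69, 0.87 and 0.56. Lamp2 stood at 89.8 to 113 RPKM over the 9 MI-2-2 libraries and 49.4 to 91.6 over the 9 DMSO libraries, rose by 0.56 in MLL-AF9 and 0.33 in MLL-AF6, with a difference of 0.08 in MLL-AF1p. Without MLL-AF9 DMSO replicate 2 the Lamp2 change in MLL-AF9 was 0.37. In MLL-AF6 the Lamp2 call ended without DMSO replicate 2 (limma, adjusted p = 0.0687), DMSO replicate 3 (0.078), MI-2-2 replicate 1 (0.0834) or MI-2-2 replicate 3 (0.0582).

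Scarb2, the receptor that carries glucocerebrosidase to lysosomes, stood at 22.0 to 43.7 RPKM over the 9 MI-2-2 libraries and 8.32 to 24.0 over the 9 DMSO libraries, and rose by 1.33, 1.81 and 0.64. Cd63, a tetraspanin of late endosomes and granules, rose by 0.25, 0.63 and 0.67. Its MLL-AF9 groups overlapped, and the call there ended with median centring (limma, adjusted p = 0.125), quantile normalization (0.0607) or each construct fitted alone (0.109), and without DMSO replicate 2 (0.0864), DMSO replicate 3 (0.0816), MI-2-2 replicate 1 (0.0875) or MI-2-2 replicate 3 (0.114). Mcoln1, a calcium-permeable channel of the lysosomal membrane, rose by 0.69, 0.66 and 0.36. In MLL-AF1p its call ended without DMSO replicate 2 (limma, adjusted p = 0.113), MI-2-2 replicate 1 (0.0739) or MI-2-2 replicate 3 (0.0617). Cln3, a membrane protein lost in Batten disease, rose by 1.02, 0.54 and 0.51. Grn encodes progranulin, a secreted and lysosomal glycoprotein, and it stood at 354 to 776 RPKM over the 9 MI-2-2 libraries and 282 to 609.7 over the 9 DMSO libraries and rose by 0.68, 0.44 and 0.33. Its MLL-AF1p call ended with quantile normalization (limma, adjusted p = 0.0758) and without DMSO replicate 2 (0.0614), MI-2-2 replicate 1 (0.0513) or MI-2-2 replicate 3 (0.0544).

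Of the transcription factor genes, Tfeb rose in every construct. In MLL-AF9 cells, Tfeb was at 5.59, 6.50 and 5.42 RPKM with MI-2-2, against 2.65, 2.89 and 2.83 RPKM with DMSO. MLL-AF6 cells had 5.75, 6.17 and 5.92 RPKM of Tfeb with MI-2-2, against 3.09, 3.02 and 3.27 RPKM with DMSO. MLL-AF1p cells had 4.97, 4.77 and 4.76 RPKM with MI-2-2, against 2.82, 3.02 and 2.66 RPKM with DMSO. The 9 MI-2-2 libraries all lay above the 9 DMSO libraries. Tfeb rose by 0.94, 0.83 and 0.68 (SE 0.07 each; limma, Benjamini-Hochberg adjusted p = 3e-08, 1.31e-07 and 2.29e-06).

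Tfe3, a close relative of Tfeb, moved less clearly. In MLL-AF9 cells, Tfe3 was at 4.97, 4.14 and 4.89 RPKM with MI-2-2, against 3.80, 2.30 and 3.42 RPKM with DMSO. MLL-AF6 cells had 4.32, 3.69 and 4.34 RPKM of Tfe3 with MI-2-2, against 4.15, 2.49 and 3.12 RPKM with DMSO. MLL-AF1p cells had 2.69, 2.42 and 2.70 RPKM with MI-2-2, against 1.88, 1.72 and 1.92 RPKM with DMSO. The MLL-AF6 groups overlapped, and the others did not. Tfe3 had log2 fold changes of 0.51, 0.32 and 0.41 (SE 0.16 each; limma, Benjamini-Hochberg adjusted p = 0.0114, 0.0941 and 0.0445). The MLL-AF9 call ended without DMSO replicate 2 (limma, adjusted p = 0.0653) or with each construct fitted alone (0.0552). In MLL-AF1p it ended without any of 12 of the 18 libraries, all 6 of MLL-AF1p included (limma, adjusted p from 0.0504 to 0.12), and with no filter (0.0728). In MLL-AF6 a rise passed without MLL-AF6 DMSO replicate 1 (0.014) or MLL-AF9 DMSO replicate 2 (0.0418) and with median centring (0.0387).

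Mitf, named for its role in melanocytes and also used by osteoclasts and mast cells, passed in no construct. In MLL-AF9 cells, Mitf was at 3.13, 2.19 and 2.94 RPKM with MI-2-2, against 3.04, 0.934 and 1.82 RPKM with DMSO. MLL-AF6 cells had 2.83, 2.22 and 2.71 RPKM of Mitf with MI-2-2, against 2.92, 1.85 and 2.34 RPKM with DMSO. MLL-AF1p cells had 1.31, 1.30 and 1.31 RPKM with MI-2-2, against 1.53, 1.31 and 1.33 RPKM with DMSO. Groups overlapped in MLL-AF9 and MLL-AF6 and lay next to each other in MLL-AF1p. Mitf had log2 fold changes of 0.50, 0.12 and −0.06 (SE 0.23 each; limma, Benjamini-Hochberg adjusted p = 0.0769, 0.689 and 0.845), and in MLL-AF9 a rise passed without DMSO replicate 1 (0.0019). Lengths in the table for Tfeb, Tfe3 and Mitf are 2.97, 5.61 and 2.92 times the longest coding transcript, so their levels are not set against each other.

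Promoters of the list were read for the E-box CACGTG, which reads the same on both strands, from 250 bases before to 50 after the start in RefSeq on GRCm38.p6, a later build than the mm9 named by the submitters. Windows were given for 40 of the 45 genes, 49 windows in all, and none for Asah1, Ctsb, Ctsh, Galns and Npc1. CACGTG stood in a window of 14 of the 40 genes, or 35%, beside 8.09% of 27025 genes in the table and 12.3% of 8349 genes kept in the test. TCACGTGA, which contains it and is also a palindrome, stood in 5 (12.5%), beside 1.12% of the table and 2.36% of the genes kept. GTCACGTG on either strand, which also contains it, stood in 11 (27.5%), beside 2.55% of the table and 5.14% of the genes kept. The 14 genes were Ctsf, Ctsl, Lgmn, Ctsa, Ctsd, Gaa, Gla, Glb1, Naglu, Arsa, Sgsh, Lamp1, Mcoln1 and Cln3, and they include Ctsf, Gaa, Glb1, Arsa and Sgsh, which are all of the genes that fell in 2 or more constructs except Smpd1, and both genes that passed in opposite directions, Ctsl and Naglu. That overlap was noticed after the values were seen and was not tested. The windows of 4 genes are printed because they span the responses seen: Lgmn, on the minus strand at chr12:102439043-102439342, with 1 motif and a large rise; Lamp1, on the plus strand at chr8:13158911-13159210, with 4 motifs and a moderate rise; Glb1, on the plus strand at chr9:114400828-114401127, with 1 motif and a fall; and Gpnmb, on the plus strand at chr6:49036268-49036567, with none and the largest rise. A second start of Lgmn has a window at chr12:102439679-102439978 with no CACGTG. Each is written 5′ to 3′ on the gene's strand, with CACGTG in capitals.
Lgmn: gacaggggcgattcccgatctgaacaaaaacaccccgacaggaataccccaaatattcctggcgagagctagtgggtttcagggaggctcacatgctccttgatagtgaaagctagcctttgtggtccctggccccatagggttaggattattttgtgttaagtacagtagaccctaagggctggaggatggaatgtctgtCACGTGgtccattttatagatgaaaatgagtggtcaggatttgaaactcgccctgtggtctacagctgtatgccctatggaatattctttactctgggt
Lamp1: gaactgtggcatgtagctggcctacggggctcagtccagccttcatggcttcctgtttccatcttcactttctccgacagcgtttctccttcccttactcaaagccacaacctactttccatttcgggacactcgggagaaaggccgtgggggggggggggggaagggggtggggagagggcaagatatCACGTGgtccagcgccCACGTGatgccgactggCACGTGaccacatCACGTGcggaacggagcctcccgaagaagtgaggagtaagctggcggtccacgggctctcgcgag
Glb1: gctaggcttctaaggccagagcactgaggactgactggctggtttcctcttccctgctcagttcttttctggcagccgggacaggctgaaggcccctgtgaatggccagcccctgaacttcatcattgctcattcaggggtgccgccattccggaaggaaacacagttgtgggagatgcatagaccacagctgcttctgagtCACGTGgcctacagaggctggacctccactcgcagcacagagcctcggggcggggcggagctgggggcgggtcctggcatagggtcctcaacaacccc
Gpnmb: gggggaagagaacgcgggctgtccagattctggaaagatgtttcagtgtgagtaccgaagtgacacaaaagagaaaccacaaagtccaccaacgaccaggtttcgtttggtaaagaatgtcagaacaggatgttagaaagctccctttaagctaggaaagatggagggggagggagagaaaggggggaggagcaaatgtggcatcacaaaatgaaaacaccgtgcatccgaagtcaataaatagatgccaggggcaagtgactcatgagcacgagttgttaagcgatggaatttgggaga

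The 14 genes with CACGTG did not share a direction. In MLL-AF9 8 of them rose and 4 fell with a median log2 fold change of 0.67, and of the 26 without it 19 rose and 2 fell with a median of 0.73. In MLL-AF6 9 of the 14 rose and 4 fell with a median of 0.67, and of the 26 others 18 rose and 1 fell with a median of 0.40. In MLL-AF1p 6 of the 14 rose and 7 fell with a median of −0.14, and of the 26 others 14 rose and 1 fell with a median of 0.37. Over all genes 28.5% rose and 27.9% fell in MLL-AF9 cells, 18% and 38.9% in MLL-AF6 cells, and 19.1% and 26.3% in MLL-AF1p cells. The 4 of 14 that fell in MLL-AF9 lay near that share. No test was made of these splits, and a match shows only that the letters stand in the window.

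**Figure D5:**
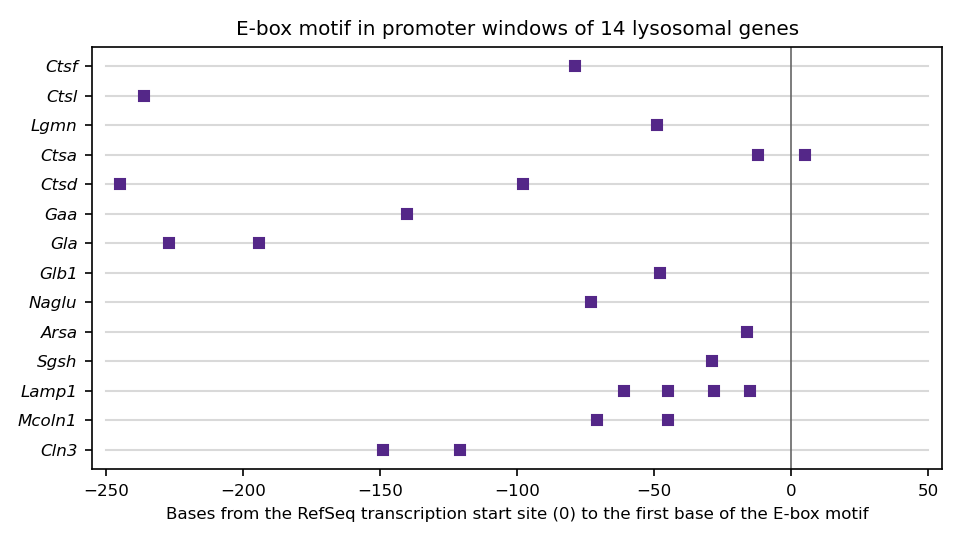
Position of the first base of each E-box motif in the RefSeq promoter windows of 14 lysosomal genes, in bases from the transcription start site at 0, with 1 line per gene and 1 square per motif. Lamp1 holds 4 motifs between −61 and −15, and most motifs lie upstream of the start.

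The MI-2-2 effect was then compared between constructs by an F test of the difference of effects in limma. Of the 45 genes 26 passed, or 57.8%, near the 52.8% of all genes. In pairs of constructs, which share libraries, the effect in MLL-AF9 minus that in MLL-AF1p was higher for 20 genes and lower for 4, while 35.1% of all genes passed, 21.4% higher and 13.6% lower. For MLL-AF6 minus MLL-AF1p it was higher for 16 and lower for 0, while 31.1% of all genes passed, 11.6% higher and 19.5% lower. For MLL-AF9 minus MLL-AF6 it was higher for 5 and lower for 11, while 33.1% of all genes passed, 24% higher and 9.02% lower. These shares over all genes depended on the scaling of the libraries. With median centring 1302 genes were higher and 1676 lower for MLL-AF9 minus MLL-AF6, against 2702 and 1014 without it. They were 1653 and 2379 for MLL-AF9 minus MLL-AF1p, against 2407 and 1532. For MLL-AF6 minus MLL-AF1p they were 1522 and 1863, against 1308 and 2187.

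The genes with the largest differences were among the largest rises. Gpnmb had an effect larger in MLL-AF9 by 2.33 than in MLL-AF6 and by 2.59 than in MLL-AF1p on the log2 scale (limma, Benjamini-Hochberg adjusted p = 6.3e-05 and 2.59e-05). For Ctss the same differences were 1.29 and 2.02. Ctsh, Lgmn, Ctsk and Cd68 instead responded most in MLL-AF6. Their effects in MLL-AF9 minus MLL-AF6 were −2.80 for Ctsh, −2.65 for Lgmn, −2.32 for Ctsk and −1.92 for Cd68. In MLL-AF6 minus MLL-AF1p they were 1.26 for Ctsh, 1.65 for Lgmn, 3.03 for Ctsk and 1.64 for Cd68. With voom in limma on the recovered reads the differences of Ctsk no longer passed (−2.57 and 1.97, adjusted p = 0.197 and 0.369), nor did Lgmn in MLL-AF9 minus MLL-AF6 (−1.60, adjusted p = 0.126), while Ctsh and Cd68 passed under the 7 other settings that were run on these differences. Ctsl had an effect larger by 1.18 in MLL-AF9 and 1.07 in MLL-AF6 than in MLL-AF1p, and Naglu one larger by 1.29 in MLL-AF6 than in MLL-AF1p. Glb1, Gaa and Smpd1, which fell everywhere, did not pass the F test (limma, Benjamini-Hochberg adjusted p = 0.193, 0.368 and 0.207).

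Without the inhibitor the constructs already differed in these genes. These contrasts share their DMSO libraries with each other and with the MI-2-2 comparisons, and MLL-AF1p libraries were the deepest. In MLL-AF9 against MLL-AF6 under DMSO 5 of the 45 were higher and 28 lower, while 53.6% of all genes passed, 24.5% higher and 29.1% lower. In MLL-AF9 against MLL-AF1p 15 were higher and 20 lower, while 65.1% of all genes passed, 28.6% higher and 36.5% lower. In MLL-AF6 against MLL-AF1p 27 were higher and 8 lower, while 52.5% of all genes passed, 23.7% higher and 28.8% lower. With median centring 3326 of all genes were higher and 2662 lower in MLL-AF9 against MLL-AF6, beside 2752 and 3269 without it. They were 3807 and 3431 in MLL-AF9 against MLL-AF1p, beside 3213 and 4105. In MLL-AF6 against MLL-AF1p they were 2888 and 3044, beside 2665 and 3235. Gpnmb under DMSO was at 5.70 ± 2.89 RPKM in MLL-AF9 cells, 53.6 ± 5.72 in MLL-AF6 cells and 7.66 ± 0.327 in MLL-AF1p (SD, n = 3). Its log2 difference was −3.22 for MLL-AF9 against MLL-AF6 and 2.72 for MLL-AF6 against MLL-AF1p. Ctss in MLL-AF9 was lower too, with differences of −2.60 against MLL-AF6 and −1.75 against MLL-AF1p. Ctsf was higher in MLL-AF9 by 1.53 against MLL-AF6 and by 2.77 against MLL-AF1p, and Cd68 by 1.15 and 1.46.

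Further lysosomal genes from general knowledge, also listed with earlier results of these data known, were read in the same way. The shares over all genes were 28.5% up and 27.9% down in MLL-AF9 cells, 18% and 38.9% in MLL-AF6 cells, and 19.1% and 26.3% in MLL-AF1p cells. Of 30 other lysosomal enzymes and activators, 28 were kept, and 18 rose and 2 fell in MLL-AF9, 19 rose and 1 fell in MLL-AF6, and 7 rose and 9 fell in MLL-AF1p, where the counts lay near those shares. Their medians were 0.38, 0.47 and −0.09. Lipa, the acid lipase that frees cholesterol from its esters, had log2 fold changes of 1.22, 2.31 and 0.42, the carboxypeptidase gene Scpep1 1.54, 1.53 and 0.64, and the aspartic protease gene Ctse 1.48, 0.66 and 1.00. Of 20 other lysosomal membrane protein genes, 19 were kept, and 14 rose and 1 fell in MLL-AF9, 11 rose and 1 fell in MLL-AF6, and 10 rose and 3 fell in MLL-AF1p. Clcn7, a chloride-proton exchanger, had 1.40, 1.04 and 0.97, the cation channel gene Tpcn2 1.20, 1.33 and 0.55, and the cystine transporter gene Ctns 0.81, 0.83 and 0.70.

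Genes that deliver enzymes to lysosomes or control TFEB were set against the same shares over all genes. Of 10 genes of mannose 6-phosphate and sortilin sorting 6 rose and 1 fell in MLL-AF9 cells, 5 rose and 1 fell in MLL-AF6, and 4 rose and 2 fell in MLL-AF1p. Sumf1, which activates sulfatases, had log2 fold changes of 0.98, 0.74 and 0.63. Gnptab, a subunit of the enzyme that makes the mannose phosphate tag, had −0.18, −1.22 and −0.78, and did not pass in MLL-AF9 (limma, adjusted p = 0.0602). The receptor gene Igf2r had −0.78, −0.20 and −0.74, and did not pass in MLL-AF6 (limma, adjusted p = 0.148). Of 19 genes of the nutrient control of TFEB, 18 were kept, and 12 rose and 2 fell in MLL-AF9, 10 rose and 2 fell in MLL-AF6, and 7 rose and 1 fell in MLL-AF1p. Fnip2, a partner of folliculin, had 2.95, 2.55 and 2.14, Rragd, a small GTPase that recruits the kinase complex to lysosomes, had 0.57, 1.88 and 0.73, and Tfec, the remaining member of the TFEB family, fell in each at −1.16, −1.43 and −0.64. Of 16 autophagy genes 7 rose and 5 fell in MLL-AF9 cells, 5 rose and 7 fell in MLL-AF6, and 4 rose and 5 fell in MLL-AF1p, with counts near the shares over all genes in MLL-AF6 and MLL-AF1p. Gabarapl1 and Wipi1, which act in the growth of the autophagosome, had −0.77, −0.70 and −0.62 for Gabarapl1 and −0.50, −0.42 and −0.54 for Wipi1. Atg5, part of the conjugation system of the autophagosome, had 0.54, 0.58 and 0.23, and did not pass in MLL-AF1p (limma, adjusted p = 0.0599).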

How the data were processed

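The labels describe total RNA with integrity numbers of 8 or more, polyA selection and a TruSeq mRNA v2 library, a kit that does not mark strand. The values are RPKM as deposited by the authors for 18 libraries and 23418 genes in 1 table with gene lengths, per the file headers. The programs Bowtie2 2.0.0.7, CASAVA 1.8.2, edgeR and HTSeq and the build mm9 are named, without their roles, in the submitters' processing notes. RPKM times kilobases summed to 1000000 in each library, and 100% of values gave whole reads within a tolerance of 0.05, which gives each library's depth.

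Groups came from the labels. A gene was kept where 3 or more of the 18 libraries had an RPKM of 1 or above (11238). limma 3.58.1 in R 4.3.3 was fitted to log2(RPKM + 0.5) on 6 group means (residual degrees of freedom 12, trended prior) with Benjamini-Hochberg adjustment over all genes kept. It was also run on simulated counts with the same dispersion in every library and few changed genes, in MLL-AF9 MI-2-2 only. That setting differs from these data, so the run does not show how the fit performs on them. Effects were compared between constructs by an F test and in pairs. The 45 genes and the other lists were chosen with earlier results of these data known, so no p is given for a list. Values per library are given for the 8 genes of largest mean absolute change, those passing in opposite directions, those lower in 2 or more constructs, those averaging 50 RPKM or more that passed nowhere, and Tfeb, Tfe3 and Mitf. Other lists give up to 3 genes of largest mean absolute change.

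Alternatives were a pseudocount of 0.1, no filter, median centring, quantile normalization, a constant prior, a replicate block, each construct alone, the 9 DMSO libraries alone, each library left out, and voom in limma on the recovered reads, which called 6211 genes in MLL-AF9 cells, 6319 in MLL-AF6 cells and 5791 in MLL-AF1p cells. Leaving out replicate 2 of every group was added after seeing the data. Gene overlaps and transcript lengths come from GENCODE M21 and promoters from RefSeq, both on GRCm38.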

Additional observations from a re-analysis of the deposited data

Results flagged for a closer look

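The change with MI-2-2 differed between the 3 constructs for 26 of the 45 lysosomal genes by the F test of limma, while 52.8% of all genes did so. Among the proteases the Benjamini-Hochberg adjusted p of this test in limma was 2.29e-06 for Lgmn, 2.53e-06 for Ctsl, 8.33e-06 for Ctsh, 0.000173 for Ctss, 0.000346 for Ctsb and 0.000976 for Ctsf. It was 0.00103 for Ctsk, 0.00184 for Ctsd, 0.00262 for Ctsc, 0.00282 for Ctsz and 0.03 for Ctsa.

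Glycosidases and sulfatases gave 7.87e-05 for Gusb, 0.000116 for Naglu, 0.000183 for Gla, 0.00196 for Idua, 0.00222 for Hexa, 0.00854 for Sgsh, 0.0109 for Ids and 0.0171 for Arsb (limma, F test, Benjamini-Hochberg adjusted p). The lipid and membrane genes gave 1.84e-05 for Psap, 7.35e-05 for Npc1, 0.0015 for Asah1, 3.25e-07 for Cd68, 1.06e-05 for Scarb2, 2e-05 for Gpnmb and 0.0151 for Cd63 (limma, F test, Benjamini-Hochberg adjusted p).

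Of these 26 genes 6 lost the call under some setting. With voom in limma the adjusted p was 0.0844 for Lgmn and 0.271 for Ctsk. With quantile normalization in limma it was 0.0797 for Cd63 and 0.506 for Ctsd. Sgsh was at 0.0536 in limma without replicate 2 of every group. Ctsa was at 0.0512 in limma with median centring, and at 0.0502 to 0.0819 without any 1 of MLL-AF9 MI-2-2 replicates 1 and 3, MLL-AF1p MI-2-2 replicates 2 and 3, and MLL-AF1p DMSO replicates 1 and 3.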

How the results depend on the processing

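Over 135 results, each a lysosomal gene in a construct, 1044 of 1080 values under the 8 other settings kept their direction and call, 14 lost the call, 15 gained it and 7 changed sign, and with libraries left out 2474 of 2565 kept both, 64 lost the call, 12 gained it and 15 changed sign. Counts of genes that rose ran from 29 to 34 in MLL-AF9 cells, 29 to 34 in MLL-AF6 cells and 21 to 25 in MLL-AF1p cells under the other settings, and from 30 to 33, 28 to 34 and 18 to 23 with libraries left out. The fold of the share of reads in MLL-AF9 cells, 2.27, ran from 2.16 to 2.35 with libraries left out. Signs changed only for differences that had not passed, apart from Lgmn in MLL-AF9 minus MLL-AF1p, which was lower and became 0.305 with voom (limma, adjusted p = 0.769). With median centring Fuca1 was −0.0104 and Npc2 −0.0678 in MLL-AF9, and Fuca1 0.0145 and Ppt1 0.0385 in MLL-AF6. With quantile normalization Arsa was 0.0121 and Fuca1 0.0138 in MLL-AF6, and Ppt1 −0.0382 in MLL-AF1p. With 1 library left out Fuca1 ran from −0.032 to 0.154, Npc2 from −0.0176 to 0.0611 and Man2b1 from −0.0799 to 0.0129 in MLL-AF9, Fuca1 from −0.219 to 0.0975, Ppt1 from −0.137 to 0.112 and Mitf from −0.0184 to 0.251 in MLL-AF6, and Ppt1 from −0.0169 to 0.0227, Gla from −0.0422 to 0.129 and Ids from −0.0064 to 0.103 in MLL-AF1p. Without replicate 2 of every group Gla was −0.0286 and Ids −0.0021 in MLL-AF1p. The cause was not tested. Same-numbered MI-2-2 and DMSO libraries deviated together with r from 0.00079 to 0.557, all positive. These values do not settle whether the numbers mark pairs, and the main fit did not take them as pairs. With the replicate block 34 genes were higher and 6 lower in MLL-AF9 cells, 34 and 5 in MLL-AF6 cells, and 23 and 10 in MLL-AF1p cells. The block ended none of the 135 calls and added 7, for Mitf (limma, adjusted p = 0.0196) and Neu1 (0.0161) in MLL-AF9, Arsb (0.0483) and Tfe3 (0.0155) in MLL-AF6, and Fuca1 (0.0374), Man2b1 (0.0358) and Npc2 (0.0212) in MLL-AF1p. Each construct fitted alone added, besides Hexa, Man2b1 and Fuca1, Asah1 (limma, adjusted p = 0.0468), Galns (0.0284) and Npc2 (0.0408) in MLL-AF1p, and leaving out replicate 2 of every group added Arsb (0.0144) and Gusb (0.0291) in MLL-AF6 and Npc1 (0.0394) in MLL-AF1p. The sizes of Lgmn and Ctsk, which had few reads under DMSO, depend on the scale.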
